A study of Caenorhabditis elegans with 8 samples.

Results

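Cytochrome P450 genes of Caenorhabditis elegans are described here by their RNA levels in 8 libraries. The members are the genes whose deposited symbol begins with cyp- followed by a family number, and 70 of the 16606 genes listed in the deposited tables carry such a symbol. They fall into 25 subfamilies, named by family number and letter as in 33C or 35A. The annotation marks 66 as protein-coding and 4 as pseudogenes (cyp-25A5, cyp-29A1, cyp-31A1 and cyp-34A3). RNA came from the laboratory wild type N2 and from the strain FAS43, each as mixed-stage embryos and as larvae of the first stage (L1), grown at 20 °C, with 2 libraries in each of the 4 groups. FAS43 carries the alleles uge44 (his-69 and his-70), tm2066 (his-72), uge18 (his-74) and ok2289 (his-71), and so has mutations in all 5 genes that encode histone H3.3, the form of H3 laid down outside replication. FAS43 embryos and FAS43 L1 larvae carried the same alleles, and no further agent or treatment was given in the labels.

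P450 enzymes hold a heme iron with which they insert an oxygen atom into small, mostly fat-soluble molecules. Most sit in the endoplasmic reticulum and receive their electrons from one shared reductase, encoded by emb-8, whereas mitochondrial types draw on other redox partners. In nematodes the family is known for the breakdown of foreign compounds, largely in the intestine, and for making lipid signals from fatty acids and sterols. The P450 that makes dafachronic acids, the ligands of the nuclear receptor DAF-12, is encoded by daf-9, which has no cyp symbol and is not among the members.

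The libraries held 17408914 to 30127179 counts. Of the mutated H3.3 genes, his-71 had 87.3 and 87.5 CPM in N2 embryos against 2 and 3 counts in the FAS43 embryo libraries, and his-72 had 363 and 636 CPM in N2 L1 and 3.56 and 8.18 CPM in FAS43 L1. Listed for L1 alone, his-70 had 13 and 41 counts in N2 and 0 in both FAS43 libraries. RNA of his-74 did not pass the test at either stage, with 129.9 and 41.8 CPM in N2 embryos, 72.6 and 75.3 CPM in FAS43 embryos, 10.7 and 16.5 CPM in N2 L1 and 27.1 and 15.2 CPM in FAS43 L1, and the labels do not say whether its allele removes RNA. The gene his-69 is not analysed here. CPM are read counts scaled to a common library size, with effective sizes from the TMM method over all 8 libraries. Several libraries stood apart from their replicate in the summed CPM of marker genes. FAS43 L1 replicate 1 held 1645 CPM of maternal and germline markers, against 253 to 717 CPM in the other L1 libraries, and 2362 CPM of intestine markers, against 4460 to 12016 CPM. The highest intestine sum, 12016 CPM, was that of FAS43 L1 replicate 2. Of it asp-1 alone made 7749 CPM, and not every intestine marker followed the sums. In embryos the intestine sum was 769 CPM in N2 replicate 2 and 674 CPM in FAS43 replicate 1, against 332 and 383 CPM in the other libraries. The labels call the libraries of a group duplicates without naming separate cultures, so every p-value here rests on a spread that may be technical.

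The members differed first in where they were listed. Of the members, 69 were listed for L1 and 43 for embryos. Of the 70 members, 42 were in both tables, 27 were in the L1 table alone and cyp-35D1 was in the embryo table alone. Of all 16606 listed genes, 16249 were listed for L1, 13692 for embryos and 13335 for both. Both tables keep only genes whose second-highest count is 10 or more, so a member missing from a table is not analysed there, and no level is given for it. Of the 11 members of subfamily 33C, 7 were listed in L1 alone, and so were 7 of the 10 members of subfamily 34A and 4 of the 9 members of subfamily 13A. All 4 members of 31A and both members of 13B were listed at both stages. The 27 members listed in L1 alone had a mean over the 4 L1 libraries of 0.391 CPM (cyp-33C1) to 27.8 CPM (cyp-13A5), with a median of 1.75 CPM, and 4 of them reached 10 CPM.

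**Figure D1:**
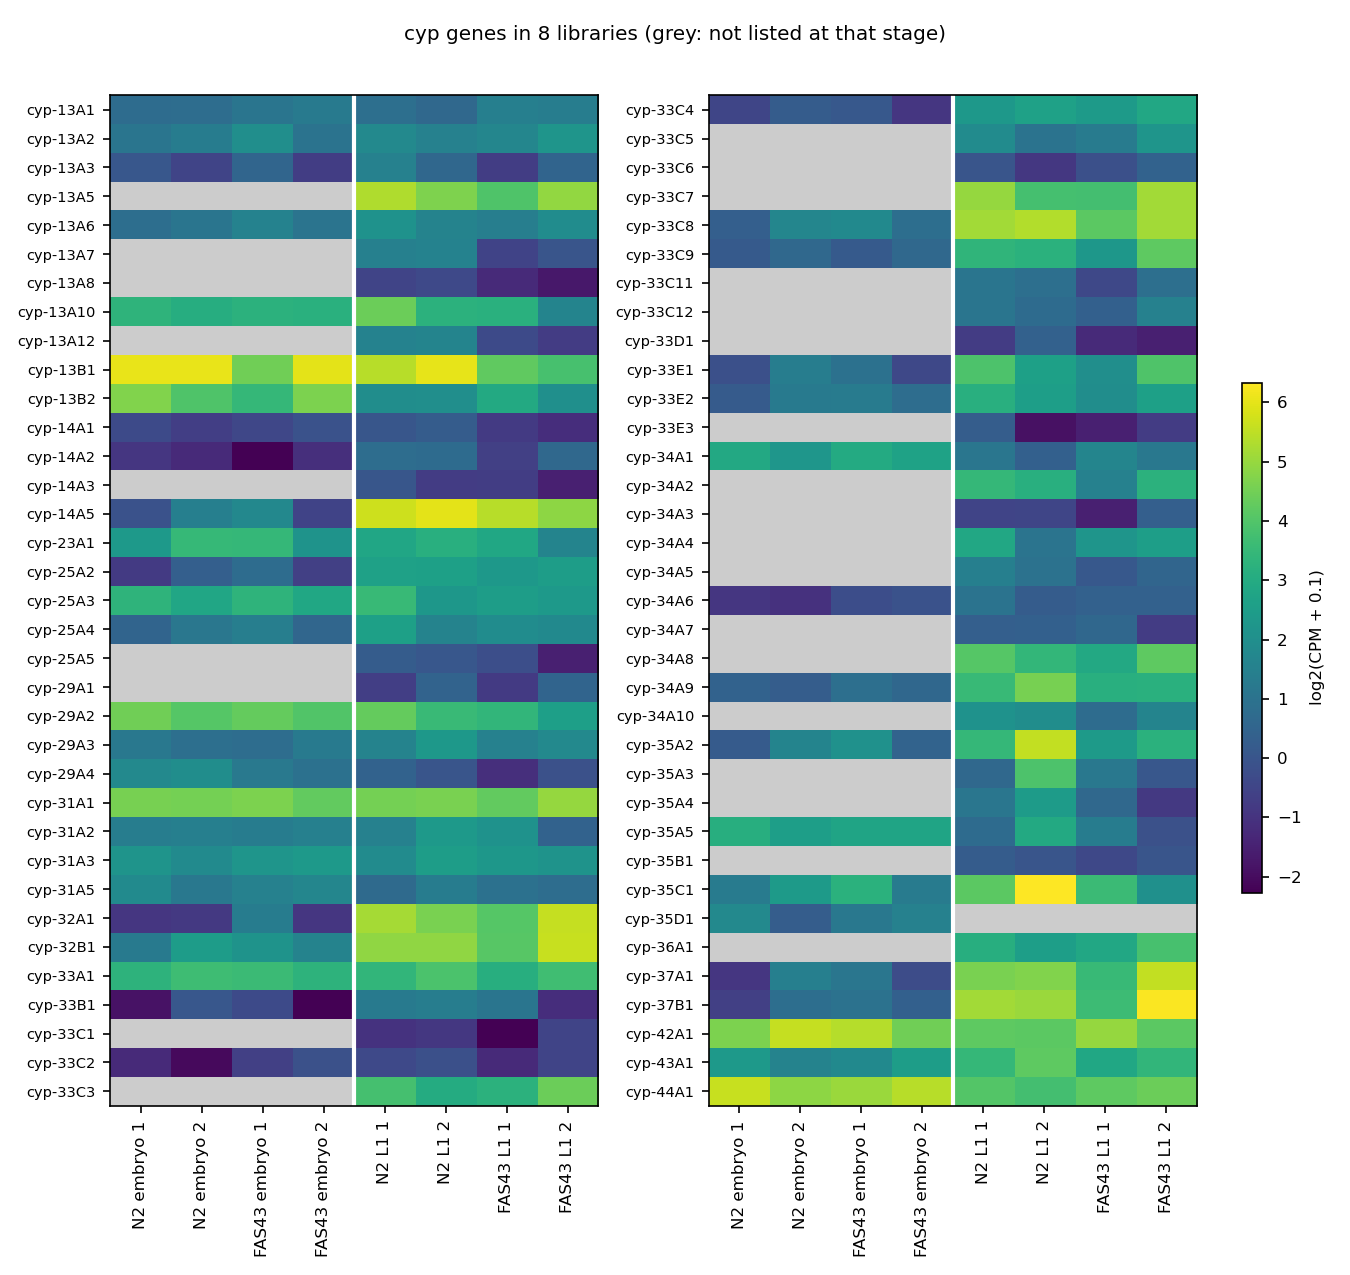
Normalised read count of each of the 70 cyp genes in the 8 libraries, as log2(CPM + 0.1), with genes in rows by family number and libraries in columns. Grey cells mark the 27 genes listed in L1 alone and cyp-35D1, listed in embryos alone; cyp-35C1 is brightest in N2 L1 replicate 2 and cyp-37B1 in FAS43 L1 replicate 2.

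The members also sit close together in the genome. By the Ensembl annotation of WBcel235, the build that the submitters' processing notes name, 39 of the 70 lie on chromosome V. With gaps of at most 20000 bases between neighbours, 37 members formed 9 arrays. The longest array by number held 9 members (cyp-35A5, cyp-35B1 and cyp-34A4 to cyp-34A10) at chromosome V 3936326 to 3972991. An array of 7 members of subfamily 13A lay at chromosome II 9779181 to 9807569, and 5 members of 33C lay at chromosome V 2236140 to 2252591. Levels of neighbours were far apart in some arrays and close in others. Within the 13A array the mean L1 level per kb of coding length was 0.295 CPM for cyp-13A8 and 17.8 CPM for cyp-13A5, and within the 33C array it was 0.576 CPM for cyp-33C6 and 15.9 CPM for cyp-33C7. In the array of cyp-25A2, cyp-25A3 and cyp-25A4 it ran only from 2.66 to 4.51 CPM. Sequences of array members were not compared here, and how the authors' counting treated reads shared by close copies is not given in the sources used here. Their separate values are uncertain to that extent. An exon of cyp-44A1 overlaps npp-24 on the same strand, and 24 members overlap an exon on the opposite strand, 7 of them one of a protein-coding gene (cyp-31A5, cyp-33C11, cyp-33E3, cyp-36A1, cyp-37A1, cyp-37B1 and cyp-43A1). The libraries were stranded, but the strand setting of the counting is not given in the sources used here, so reads of such partners may be included.

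Levels of different genes are compared as CPM per kb of coding length, or per kb of exon where a pseudogene is included. In embryos 3 genes made up 46.1% of the sum over coding members: cyp-13B1 with 35.7, the mitochondrial-type cyp-44A1 with 26.2 and cyp-42A1 with 22.4 CPM per kb as the mean of 4 libraries. After them came cyp-13B2 with 12.6 and cyp-29A2 with 12.4 CPM per kb. The first of these is uneven between libraries: cyp-13B1 (chromosome X 13406674 to 13409643) had 66.5 and 65.9 CPM in N2 embryos and 22.1 and 63.9 CPM in FAS43 embryos, so FAS43 replicate 1 was low while the other libraries lay close to each other. The gene cyp-44A1 (chromosome II 5504044 to 5505975) had 49.1 and 29.04 CPM in N2 embryos and 32.9 and 42.9 CPM in FAS43 embryos, with overlapping groups. For cyp-42A1 (chromosome V 18912036 to 18918117) the values were 25.0 and 48.1 CPM in N2 embryos and 41.9 and 22.1 CPM in FAS43 embryos, high in N2 replicate 2 and FAS43 replicate 1.

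In L1 the sum was spread over more genes, and the 10 highest made up 52.5%. The order was cyp-14A5 with 31.4, cyp-37B1 with 25.8, cyp-13B1 with 22.9, cyp-33C8 with 21.8 and cyp-32B1 with 20.3 CPM per kb, followed by cyp-32A1, cyp-35C1, cyp-13A5, cyp-37A1 and cyp-33C7 at 19.5 to 15.9 CPM per kb. The libraries of neighbouring genes in this order overlapped, as the plot of levels per kb shows. Only cyp-13B1 was among the 5 highest at both stages.

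**Figure D2:**
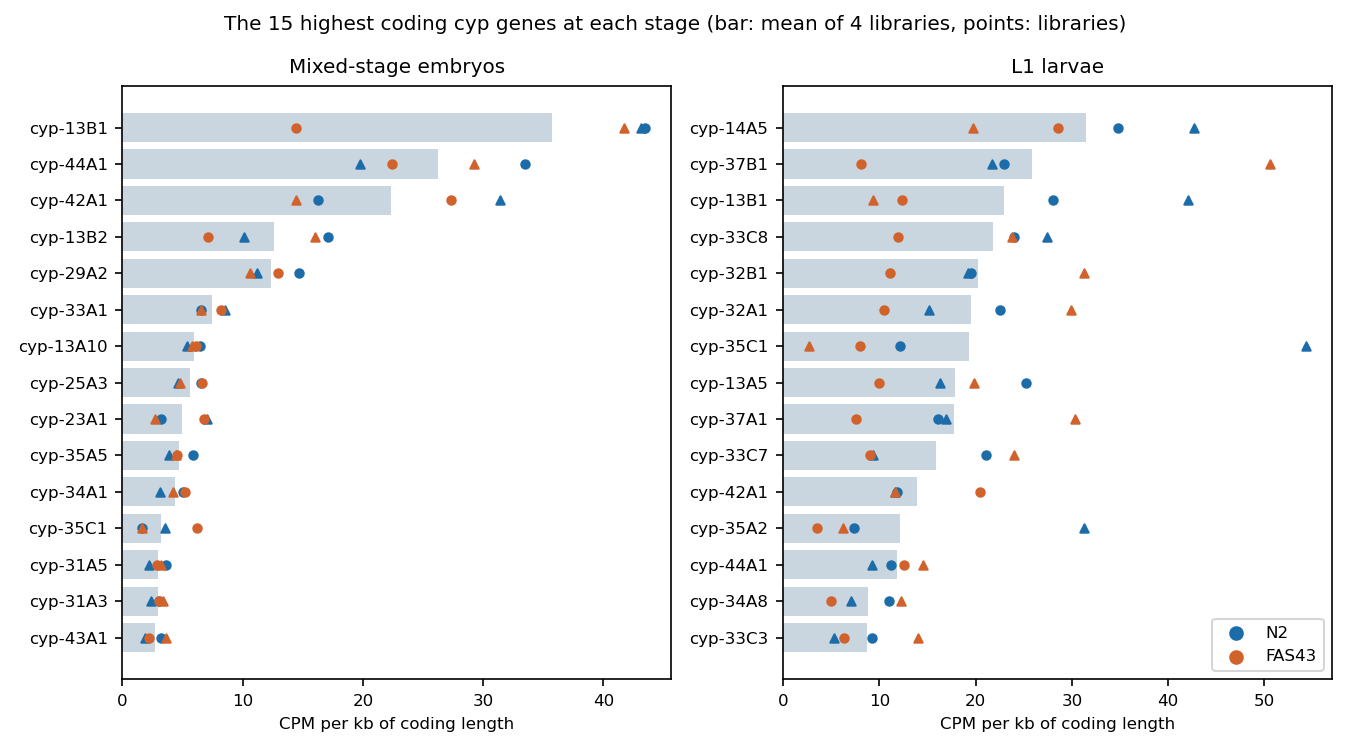
CPM per kb of coding length of the 15 highest coding cyp genes in embryos (left) and in L1 (right). Bars are means of 4 libraries, and points are libraries (circle for replicate 1, triangle for replicate 2, blue for N2, orange for FAS43); cyp-13B1 leads in embryos with 35.7 and cyp-14A5 in L1 with 31.4 CPM per kb.

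The highest member of each other subfamily was lower than these. In 33A, cyp-33A1 kept an even level, with 9.63 to 12.6 CPM in the embryo libraries and 8.73 to 14.8 CPM in the L1 libraries. In 25A, cyp-25A3 had 6.93 to 9.92 CPM in embryos and 4.78 to 11.6 CPM in L1, and in 34A, cyp-34A8 was listed in L1 alone with 7.49 to 18.3 CPM. In 43A, cyp-43A1 had 2.91 to 5.69 CPM in embryos and 7.09 to 18.2 CPM in L1. The single members cyp-33B1, cyp-33D1 and cyp-35B1 stayed under 3 CPM in every library in which they were listed, and cyp-35D1, of embryos alone, had 3.33 and 1.102 CPM in N2 and 2.16 and 2.77 CPM in FAS43.

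The 31A genes include cyp-31A2 and cyp-31A3, which act with the reductase EMB-8 in making lipids that seal the eggshell. Their counts were low: cyp-31A2 had 2.50, 2.63, 2.43 and 2.66 CPM in the 4 embryo libraries and 2.74, 5.06, 4.25 and 1.26 CPM in the 4 L1 libraries, with N2 before FAS43. The libraries of cyp-31A3 ran from 3.48 to 4.96 CPM in embryos and from 3.61 to 5.68 CPM in L1. The annotated pseudogene cyp-31A1 had 19.3 to 24.6 CPM in embryos and 19.3 to 31.2 CPM in L1. Per kb of exon its mean was 16.3 CPM in embryos and 17.6 CPM in L1, against 1.57 and 2.04 CPM for cyp-31A2 and 2.74 and 2.89 CPM for cyp-31A3. These genes may be close in sequence, which was not examined here, so the split of reads among them is uncertain. None of the 4 members of 31A passed the test in any comparison, with log2 fold changes of L1 over embryos from -0.52 to 0.60 in N2 and from -0.75 to 0.20 in FAS43. Reductase RNA from emb-8 was present in every library, at 78.0 to 108 CPM in embryos and 89.4 to 149 CPM in L1.

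The stages were compared within each strain by edgeR's quasi-likelihood test, with p-values adjusted by the Benjamini-Hochberg method over the 13335 genes listed in both tables. A gene is called where the adjusted p is under 0.05. In N2, 16 of the 42 members listed at both stages rose from embryos to L1 (38.1%), against 22.6% of all tested genes. Only cyp-13B2 and cyp-34A1 fell (4.76%), against 16.2% of all tested genes. The median log2 fold change of the members was 1.20, against 0.00 over all tested genes. In FAS43, 11 members rose (26.2%, against 15.8% of all tested genes) and 0 fell (against 9.66%), with a median of 0.39 for the members and -0.03 for all tested genes. At an unadjusted p under 0.05, 4 members were lower in L1 in FAS43 (9.52%), and 4 in N2 (9.52%). The share over all tested genes at that threshold is not given here, so this count shows nothing particular to the members. In these mixed-tissue samples, more cells of a type and more RNA per cell cannot be told apart. Members missing from the embryo table could not enter this comparison, so these shares describe the 42 members and not the family.

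All 11 members called higher in FAS43 were among the 16 called higher in N2 (68.8% of N2's calls and 100% of FAS43's, against 63.9% and 91.2% over all tested genes), so the overlap is near that of all genes. These contrasts set different libraries against each other, but they come from the same fit of all 8 libraries and share its estimate of the spread. The 11 members were cyp-14A5, cyp-25A2, cyp-32A1, cyp-32B1, cyp-33C4, cyp-33C8, cyp-33C9, cyp-33E1, cyp-34A9, cyp-37A1 and cyp-37B1. The other 5, called in N2 alone, were cyp-14A2, cyp-33E2, cyp-35A2, cyp-35C1 and cyp-43A1. The difference between the strains in these 5 is tested further on, and none passed.

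Families 32 and 37 had high median stage changes, of 4.49 and 4.47 in N2 and 3.84 and 4.62 in FAS43 on the log2 scale, while cyp-14A5 of family 14 changed as much. The counts of cyp-32A1 (chromosome V 7781811 to 7784594) were 0.434 and 0.462 CPM in N2 embryos and 35.8 and 24.0 CPM in N2 L1, and 2.43 and 0.438 CPM in FAS43 embryos and 16.6 and 47.4 CPM in FAS43 L1. All 4 L1 libraries lay above all 4 embryo libraries. The log2 fold change was 6.04 (SE 0.96, edgeR adjusted p = 0.000382) in N2, a 66.02-fold change, and 4.50 (SE 0.88, edgeR adjusted p = 0.00322) in FAS43. For cyp-37B1 (chromosome V 16278116 to 16280616), N2 embryos had 0.543 and 1.71 CPM, N2 L1 35.1 and 33.2 CPM, FAS43 embryos 1.89 and 1.20 CPM and FAS43 L1 12.4 and 77.2 CPM. Its log2 fold change was 4.92 (SE 0.91, edgeR adjusted p = 0.000856) in N2 and 4.86 (SE 0.91, edgeR adjusted p = 0.00255) in FAS43. The FAS43 L1 libraries of cyp-37B1 lay far apart, yet both exceeded every embryo library. Its family member cyp-37A1 rose by a log2 fold change of 4.03 in N2 and 4.39 in FAS43, and cyp-32B1 by 2.93 and 3.17.

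**Figure D3:**
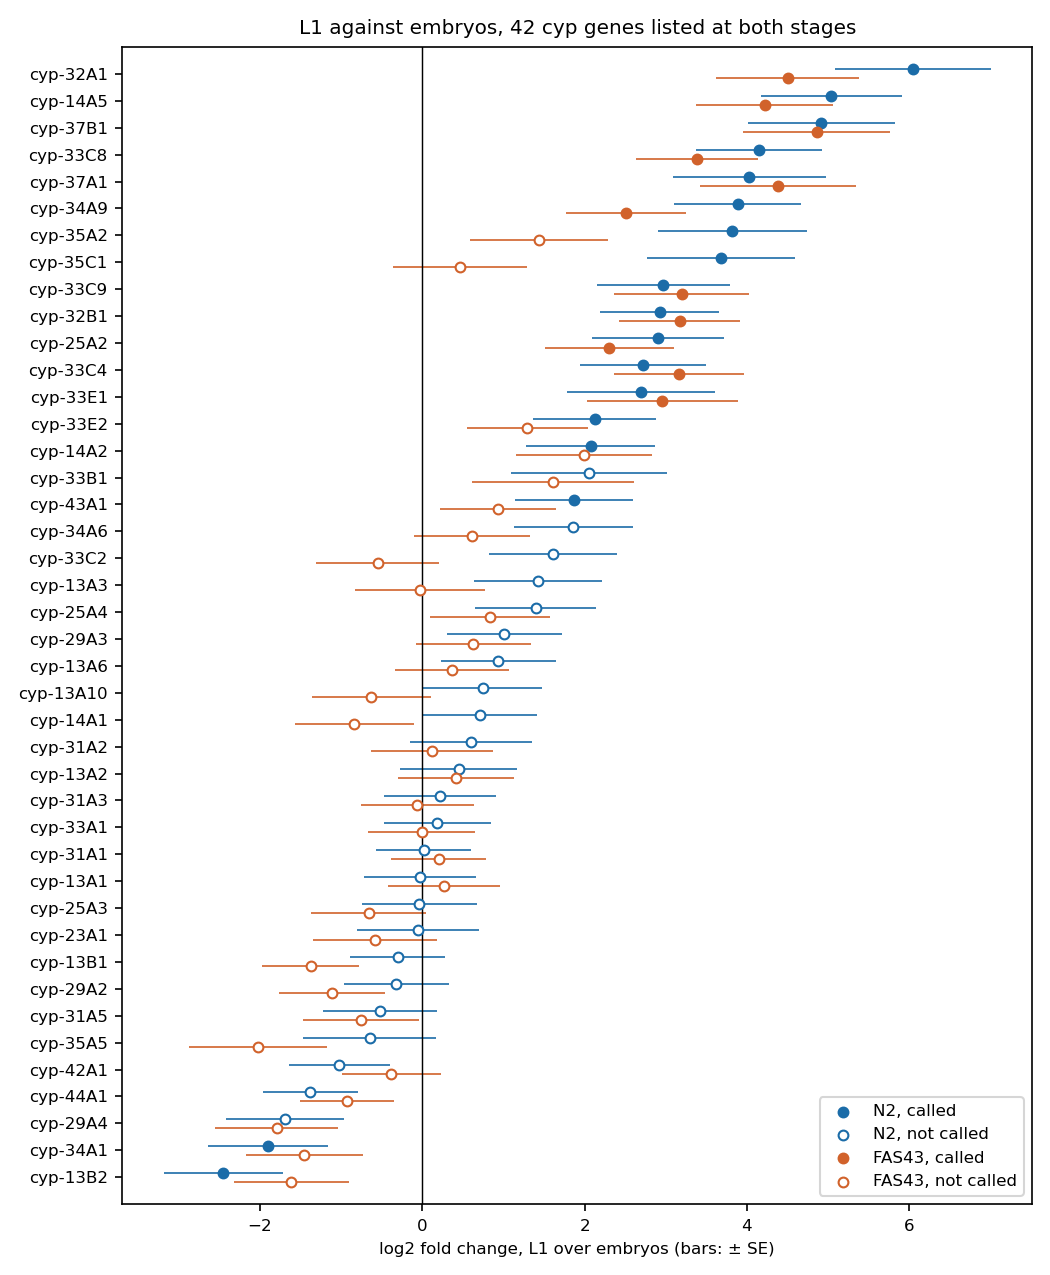
Log2 fold change of L1 over embryos for the 42 cyp genes listed at both stages, in N2 (blue) and FAS43 (orange), with bars of 1 SE from the fit. Filled points are called at an adjusted p under 0.05, 18 in N2 and 11 in FAS43; cyp-32A1 is at the top with 6.04 in N2 and cyp-13B2 at the bottom with -2.45.

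In subfamily 14A, cyp-14A5 (chromosome V 5421018 to 5423282) had 0.833 and 2.63 CPM in N2 embryos, 51.3 and 63.0 CPM in N2 L1, 3.29 and 0.584 CPM in FAS43 embryos and 42.2 and 29.1 CPM in FAS43 L1. The stages were far apart in both strains, with log2 fold changes of 5.04 in N2 (SE 0.87, edgeR adjusted p = 0.000611) and 4.22 in FAS43 (SE 0.84, edgeR adjusted p = 0.00345). The 3 neighbours cyp-14A1, cyp-14A2 and cyp-14A3 on chromosome X stayed under 2 CPM in every library in which they were listed. The gene cyp-33C8 (chromosome V 3800782 to 3803542) had 1.16 and 3.13 CPM in N2 embryos, 35.6 and 40.6 CPM in N2 L1, 3.40 and 1.68 CPM in FAS43 embryos and 17.7 and 35.3 CPM in FAS43 L1. Subfamily 33C rose in 3 of its 4 tested members: cyp-33C8 by 4.15 in N2 and 3.39 in FAS43, cyp-33C9 by 2.97 and 3.19, and cyp-33C4 by 2.72 and 3.16 on the log2 scale. The 7 members of 33C listed in L1 alone include cyp-33C7, at 31.2 and 13.9 CPM in N2 and 13.3 and 35.6 CPM in FAS43, and cyp-33C3, at 13.8 and 7.98 CPM in N2 and 9.42 and 20.96 CPM in FAS43.

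The 33E genes are known from work on eicosanoids, the signalling lipids made from polyunsaturated fatty acids. The counts of cyp-33E1 were 0.796 and 2.49 CPM in N2 embryos and 15.3 and 6.01 CPM in N2 L1, and 1.83 and 0.657 CPM in FAS43 embryos and 3.85 and 15.4 CPM in FAS43 L1. The stages did not overlap in either strain, and cyp-33E1 rose by 2.70 in N2 (edgeR adjusted p = 0.0264) and 2.96 in FAS43 (edgeR adjusted p = 0.0280). The gene cyp-33E2 rose by 2.13 in N2 (edgeR adjusted p = 0.0340), and its value in FAS43, 1.29, did not pass. Another gene of eicosanoid synthesis, cyp-29A3, had 1.67 to 2.26 CPM in embryos and 2.76 to 4.95 CPM in L1, and did not pass in either strain.

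Subfamily 34A held changes in both directions. The counts of cyp-34A9 were at most 1.72 CPM in embryos, 11.6 and 23.7 CPM in N2 L1 and 8.94 and 8.99 CPM in FAS43 L1. It rose by 3.89 in N2 (edgeR adjusted p = 0.00137) and 2.51 in FAS43 (edgeR adjusted p = 0.0216). In contrast cyp-34A1 had 7.57 and 4.69 CPM in N2 embryos and 2.07 and 1.18 CPM in N2 L1, and fell by 1.90 in N2 (SE 0.74, edgeR adjusted p = 0.0485). Its value in FAS43 was -1.45, which did not pass. The other member that fell was cyp-13B2, with 26.2 and 15.5 CPM in N2 embryos and 3.74 and 3.88 CPM in N2 L1. Its log2 fold change was -2.45 (SE 0.73, edgeR adjusted p = 0.0148) in N2 and -1.61 (edgeR adjusted p = 0.0999) in FAS43.

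Other members, among them the embryo-high cyp-44A1 and cyp-42A1, had lower values in L1 that did not pass in either strain by edgeR. The log2 fold changes were -1.38 and -0.93 for cyp-44A1, -1.69 and -1.79 for cyp-29A4, and -1.02 and -0.38 for cyp-42A1, N2 before FAS43. DESeq2 called 15 members higher and 4 lower in N2 (35.7% and 9.52%, against 25.3% and 21.3% of all tested genes), adding cyp-44A1 and cyp-29A4 to those that fell. In FAS43 it called 11 higher and 4 lower (26.2% and 9.52%, against 20.3% and 15.8%), the lower ones being cyp-13B2, cyp-29A4, cyp-34A1 and cyp-35A5. By library values alone, 26 of 42 members had both N2 L1 libraries above both N2 embryo libraries (61.9%, against 37.3% of all tested genes) and 6 had both below (14.3%, against 35.6%). In FAS43 the counts were 19 above (45.2%, against 36.5%) and 10 below (23.8%, against 34.3%).

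The calls leaned on single libraries of both stages, as they did over all genes. Without N2 embryo replicate 1, 6 members were called higher in N2 in place of 16 (14.3%, against 8.80% of all tested genes), and without N2 L1 replicate 2 there were 9 (21.4%, against 14.7%). Without FAS43 embryo replicate 2, 1 member was called higher in FAS43 in place of 11 (2.38%, against 1.78%), namely cyp-37B1, and without FAS43 L1 replicate 2 there were 5 (11.9%, against 5.39%). The members called higher in N2 whichever library was left out were cyp-14A5, cyp-32A1, cyp-33C8, cyp-34A9, cyp-37A1 and cyp-37B1. Among the 43 members listed in embryos, 19 were higher in both N2 replicate 2 and FAS43 replicate 1 than in both other embryo libraries (44.2%, against 35.4% of all listed genes), and 8 were lower in both (18.6%, against 20.2%). N2 replicate 2 and FAS43 replicate 1 are the embryo libraries with the higher sums of intestine and muscle markers, at 1896 and 1640 CPM against 681 and 624 CPM for muscle. Some genes went against these sums. For muscle, hlh-1 had 105.6 and 51.1 CPM in N2 embryos and 96.8 and 70.5 CPM in FAS43 embryos, lowest in N2 replicate 2. For intestine, elt-7 had the same order of libraries, and elt-2 and ges-1 did not follow the sum either. The other genes in the intestine and muscle sums followed. The part of these markers in the stage changes was not tested.

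FAS43 was then compared with N2 within each stage, which asks how these genes differ between the strains. The H3.3 alleles and any other difference between the strains cannot be told apart. In embryos, 0 of the 42 tested members were called by edgeR, against 0.022% of all 13617 tested genes, and 0 were called by DESeq2. At an unadjusted p under 0.05 there were 0 members (all genes 0.698%, and 0.103% for lower genes). The member cyp-14A2 was listed in embryos but did not pass the filter on low counts. The members' log2 fold changes ran from -0.95 to 1.43 with a median of -0.06 (0.45 without N2 embryo replicate 2), against -0.08 for all tested genes (0.17), and 22 of 42 were below 0 (52.4%, against 59.9%). Both FAS43 libraries lay above both N2 libraries for 5 members (11.9%, against 4.33%) and below for 2 members (4.76%, against 5.11%).

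The smallest unadjusted p-values in embryos belonged to cyp-33C2, cyp-32A1, cyp-29A4, cyp-13B1 and cyp-34A6, with edgeR adjusted p = 1.00 for each. For cyp-33C2 the values were 0.326 and 0.142 CPM in N2 and 0.539 and 0.803 CPM in FAS43, so the log2 fold change was 1.43 (SE 1.04) at very low counts. The embryo value of cyp-32A1, 1.41 (SE 0.97), came from FAS43 replicate 1 with 2.43 CPM, while the other 3 libraries had 0.434 to 0.462 CPM. Without that library it was -0.01. For cyp-29A4 the counts were 3.33 and 3.73 CPM in N2 and 2.21 and 1.82 CPM in FAS43, without overlap, and the log2 fold change was -0.95 (SE 0.88).

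In L1, 0 of 69 members were called by edgeR (all genes 0.0186%) and 0 by DESeq2. The unadjusted values leaned to one side. At an unadjusted p under 0.05 there were 7 members, all lower in FAS43 (10.1%, against 1.58% of all tested genes for lower and 3.37% for either direction). In 47 members the log2 fold change was below 0 (68.1%, against 50.3%), and the median was -0.34, against -0.00 over all 16099 tested genes. The members' median was -0.20 without FAS43 L1 replicate 1 and -0.69 without FAS43 L1 replicate 2. Both FAS43 libraries lay below both N2 libraries in 25 members (36.2%, against 14.6%) and above in 4 members (5.80%, against 13.2%), which were cyp-13A1, cyp-13B2, cyp-34A1 and cyp-44A1. Of the 43 members listed for embryos, the authors' deposited table marked 0, against 84 of all 13692 listed genes. For L1 it marked 7 of 69 members, against 579 of all 16249 listed genes, all 7 with a negative log2 fold change. In the authors' deposited table these members had an FDR of 0.9998 each, so the marks do not stand for an adjusted p, and they rest on the same libraries.

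**Figure D4:**
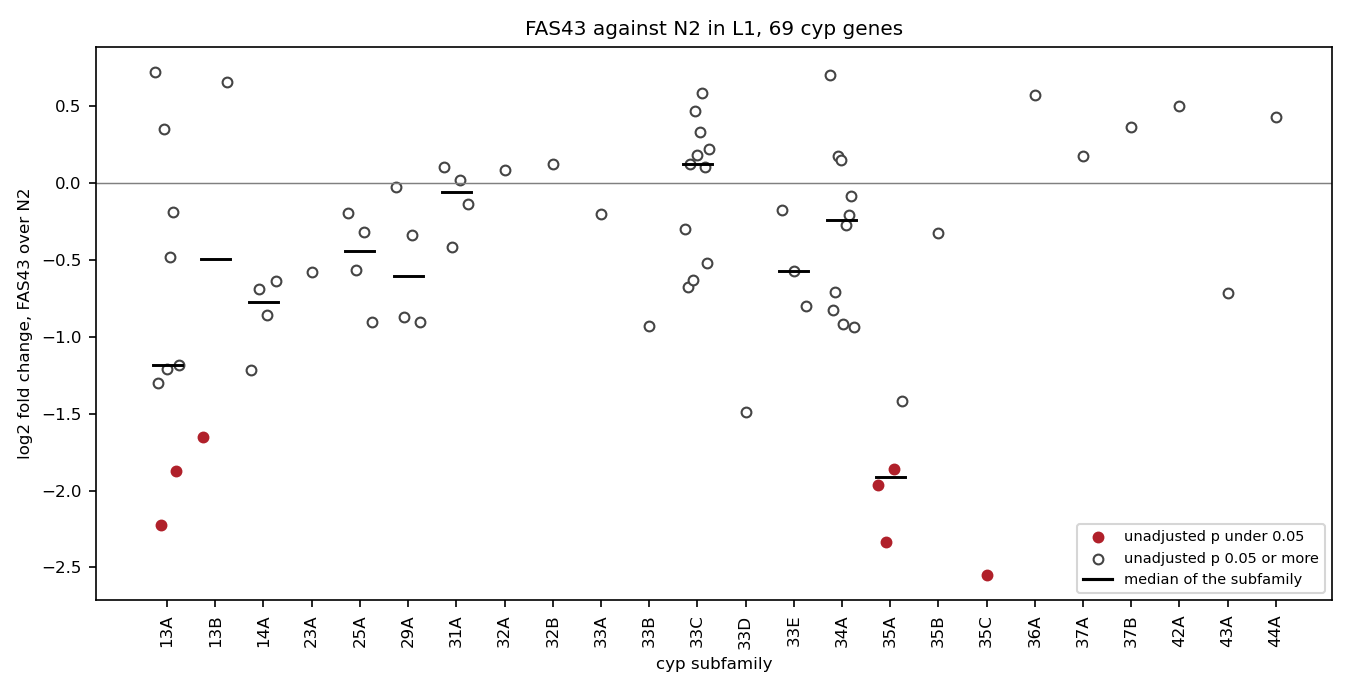
Log2 fold change of FAS43 over N2 in L1 for the 69 listed cyp genes by subfamily, with each point a gene, red where the unadjusted p is under 0.05, and a line at the median of each subfamily with several genes. All 6 genes of family 35 lie below 0, with a median of -1.91, while 33C is centred at 0.12; none was called after adjustment.

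The lower values were unevenly spread over subfamilies. Family 35, known for its strong induction by foreign compounds and for effects on fat stores, had all 6 tested members below 0 with a median log2 fold change of -1.91. Subfamily 13A had 7 of 9 below 0 with a median of -1.19, and 14A had 4 of 4 with a median of -0.77. The 13A median was -0.68 without N2 L1 replicate 1 and -0.73 without FAS43 L1 replicate 1, and that of 14A was -1.29 without FAS43 L1 replicate 1. All 4 members of 25A and all 4 of 29A were below 0, with medians of -0.44 and -0.60. Subfamily 33C had 7 of 11 above 0 with a median of 0.12, and both members of family 32 and both of family 37 were slightly above 0. Without FAS43 L1 replicate 2 the medians of these groups were -0.65 for 33C, -0.72 for family 32 and -1.19 for family 37, so their direction rested on that library. Subfamilies were not tested against each other, and neighbours in an array may share sequence. They did not always share direction, since in the 13A array 5 of 7 members were below 0.

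The gene cyp-35C1 (chromosome V 13896663 to 13898487) had 18.0 and 80.7 CPM in N2 L1 and 11.9 and 4.04 CPM in FAS43 L1. The groups did not overlap, but N2 replicate 2 was far above N2 replicate 1. The log2 fold change was -2.55 (SE 0.69), the smallest p of any member, with an edgeR adjusted p = 1.00. For cyp-35A2 (chromosome V 7362319 to 7364182) the counts were 10.9 and 46.4 CPM in N2 and 5.27 and 9.24 CPM in FAS43, with a log2 fold change at -1.97 (SE 0.66, edgeR adjusted p = 1.00). For cyp-35A3 (chromosome V 4022609 to 4024482) they were 1.47 and 15.3 CPM in N2 and 2.18 and 0.96 CPM in FAS43, so the groups overlapped. Its neighbour cyp-35A4 had 2.04 and 5.40 CPM in N2 and 1.45 and 0.455 CPM in FAS43, and cyp-35A5 had 1.57 and 7.70 CPM in N2 and 2.44 and 0.808 CPM in FAS43.

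The same library, N2 replicate 2, was the highest for each of these 5 genes. Without it the family median was -0.52 in place of -1.91, the value of cyp-35C1 was -1.11 and that of cyp-35A2 was -0.59, and cyp-35A3 and cyp-35A5 turned to 0.15 and 0.11. Without FAS43 L1 replicate 1 instead, the value of cyp-35C1 was -3.67 and the family median was -2.82. Some genes from the lists of regulators, chosen after their values were seen, also set N2 replicate 2 apart. The mediator subunit gene mdt-15, which acts in fat metabolism and in responses to foreign compounds, had 446 and 70.7 CPM in N2 L1 and 275 and 619 CPM in FAS43 L1. The nuclear receptor gene daf-12 had 98.6 and 9.27 CPM in N2 L1 and 53.7 and 104 CPM in FAS43 L1, and the nuclear receptor gene nhr-80 had 12.99 and 35.2 CPM in N2 L1 and 11.3 and 20.8 CPM in FAS43 L1. Their part in the values of family 35 was not tested.

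The lower values of 3 genes of family 13 did not rest on N2 replicate 2, without which they were -2.20 for cyp-13A12, -1.85 for cyp-13A7 and -1.34 for cyp-13B1. The gene cyp-13A12, which acts in the behavioural response to reoxygenation, had 2.84 and 2.98 CPM in N2 L1 and 0.691 and 0.505 CPM in FAS43 L1. The replicates of each strain lay close together and the strains apart, and the log2 fold change was -2.22 (SE 0.82, edgeR adjusted p = 1.00). Likewise cyp-13A7 had 2.70 and 2.81 CPM in N2 and 0.582 and 0.909 CPM in FAS43, and the log2 fold change was -1.87 (SE 0.80). These are low levels, at 10 to 85 counts a library for cyp-13A12. For cyp-13B1 the counts were 42.9 and 64.4 CPM in N2 and 18.9 and 14.2 CPM in FAS43, and the log2 fold change was -1.65 (SE 0.57, edgeR adjusted p = 1.00). The same gene was low in FAS43 embryo replicate 1 and not in FAS43 embryo replicate 2. The gene cyp-13A10 had 21.3 and 9.499 CPM in N2 and 9.02 and 2.93 CPM in FAS43.

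**Figure D5:**
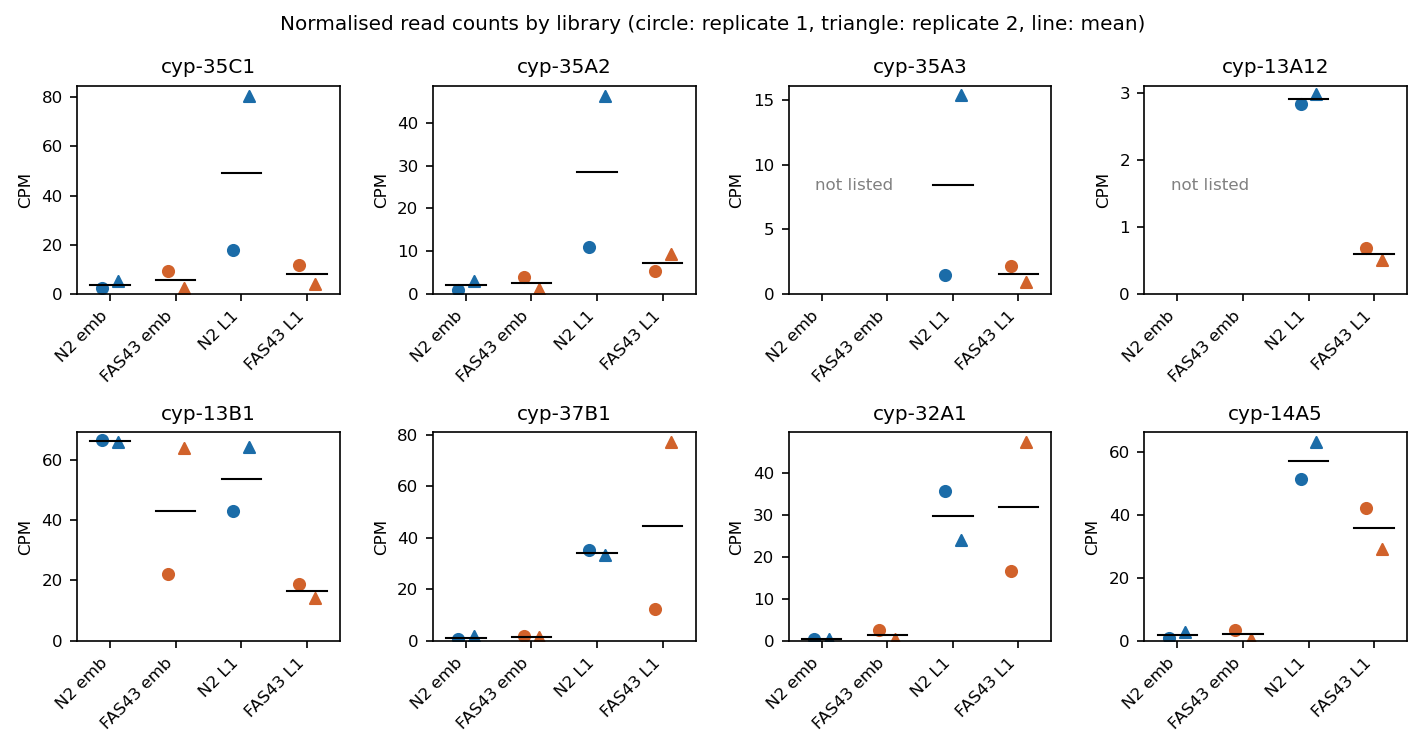
CPM of 8 cyp genes by library, with circles for replicate 1, triangles for replicate 2, and lines at the group means (blue N2, orange FAS43). N2 L1 replicate 2 is highest for cyp-35C1, cyp-35A2 and cyp-35A3 (80.7, 46.4 and 15.3 CPM), and FAS43 L1 replicate 2 for cyp-37B1 and cyp-32A1 (77.2 and 47.4 CPM).

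The L1 libraries of FAS43 differed from each other in opposite ways in other families. FAS43 replicate 1 was the lowest L1 library for 33 of 69 members (47.8%, against 33.5% of all listed L1 genes) and the highest for 5 (7.25%, against 24.0%). FAS43 replicate 2 was the highest for 20 members, a share of 29% that is near the 26.4% of all listed L1 genes. Among them were 8 of the 11 members of 33C and cyp-32A1, cyp-32B1, cyp-37A1 and cyp-37B1. For cyp-32B1 the counts were 30.2 and 29.7 CPM in N2 and 17.2 and 48.4 CPM in FAS43, and for cyp-37A1 they were 24.5 and 25.8 CPM in N2 and 11.5 and 46.2 CPM in FAS43. In both genes the N2 libraries lay close together and between the FAS43 libraries. Summed markers of intestine (2362 and 12016 CPM), muscle (8579 and 18043 CPM), neurons (712 and 1249 CPM) and pharynx (2424 and 2634 CPM) were likewise lower in FAS43 replicate 1 than in replicate 2. Those of epidermis (335 and 219 CPM), early zygotic genes (158 and 64.3 CPM) and maternal and germline genes (1645 and 717 CPM) had the opposite order. Some genes went against their sum, with pha-4 (128 and 86.5 CPM) and tnt-4 (189 and 174 CPM) of pharynx lower in replicate 2. So were hlh-1 of muscle and unc-119 of neurons, while elt-3 of epidermis was higher there. The other summed genes followed. In the intestine sum asp-1 alone had 996 and 7749 CPM. The part of these markers was not tested. Over the 42 members in both tables the summed level was 525 and 638 CPM in N2 L1 and 346 and 521 CPM in FAS43 L1, against 309 and 310 CPM in N2 embryos and 282 and 281 CPM in FAS43 embryos.

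Among the genes that passed neither call in L1, cyp-36A1, which acts with the oxygen-sensing pathway of EGL-9, had 8.68 and 5.73 CPM in N2 and 7.38 and 14.04 CPM in FAS43, with overlapping groups. The counts of cyp-14A3 were 0.935 and 0.506 CPM in N2 and 0.509 and 0.253 CPM in FAS43. For cyp-23A1 they were 7.01 and 8.82 CPM in N2 and 7.16 and 2.98 CPM in FAS43. The L1 table also listed daf-9, at 1.70 and 1.24 CPM in N2 and 0.582 and 1.01 CPM in FAS43, where the log2 fold change, -0.88, did not pass.

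The difference of the FAS43 effect between L1 and embryos was tested in the fit of all 8 libraries. By edgeR 0 of 42 members were called, as were 0% of all tested genes, and DESeq2 called 0. At an unadjusted p under 0.05 there was 1 member, lower in L1 (2.38%, against 1.49% in either direction and 1.43% for lower), namely cyp-35C1. Its difference was -3.21 (SE 1.20, edgeR adjusted p = 0.999), and without N2 L1 replicate 2 it was -1.76. The differences next in p were -2.38 for cyp-35A2, -2.16 for cyp-33C2, -1.54 for cyp-14A1 and -1.38 for cyp-34A9. The median over members was -0.50, against 0.02 for all tested genes (over libraries left out it ran from -0.74 without N2 embryo replicate 2 to -0.11 without FAS43 embryo replicate 1), and 31 of 42 were below 0 (73.8%, against 48.9%). These differences are the same numbers as the stage changes of N2 and FAS43 set against each other, so cyp-35A2 and cyp-35C1, which rose by 3.82 and 3.68 in N2 and had 1.44 and 0.47 in FAS43, are not shown to differ between the strains.

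Genes of the pathways around the P450 enzymes were read from lists of 4 to 18 genes. Of the 4 redox partners, cytb-5.2, a cytochrome b5, rose from embryos to L1 in N2 (log2 fold change 1.54) and 0 passed in FAS43. Its counts were 131 and 84.7 CPM in N2 embryos and 266 and 361 CPM in N2 L1. Of the 4 tested genes of the dafachronic acid pathway, 0 passed in N2 and daf-12 and daf-36, the latter a sterol oxygenase, rose in FAS43 by 2.94 and 2.30. Of 18 regulators of xenobiotic and lipid genes, nhr-80 rose in N2 (2.69), and nhr-80 and daf-12 rose in FAS43. Of 11 genes for polyunsaturated fatty acids and epoxide hydrolases, 4 rose in N2: the desaturase genes fat-2 (5.996), fat-6 (5.09) and fat-5 (2.22) and the epoxide hydrolase gene ceeh-2 (2.24). In FAS43 fat-2 (5.37) and fat-6 (4.71) rose. Of the 14 tested genes of the eggshell barrier 0 passed in either strain. In the comparisons of FAS43 with N2 at either stage, and in their difference, 0 genes of these lists passed by edgeR.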

How the data were processed

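Polyadenylated RNA was sequenced from 8 libraries with a stranded kit, in reads of 50 bases, per the labels' protocols. The submitters' processing notes name TopHat2 2.0.13, HTSeq 0.6.1, edgeR 3.10.5 and the build WBcel235 but no settings of the counting. The deposited tables, 1 per stage, hold raw read counts per gene, normalised values made by the authors (a signal on the scale of counts, not used for tests), and the authors' log2 fold changes with their p-values and FDR, per the file headers. All results here come from the counts except those credited to the authors' deposited table. The 2 stages were counted in separate tables, and levels and comparisons across stages use the raw counts of genes listed in both.

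FAS43 was compared with N2 within each stage (4 libraries a fit, 2 residual degrees of freedom) and, over all 8 libraries, the stages within each strain and the difference of the strain effect between stages (4 residual degrees of freedom). Each used edgeR 4.0.16 (R 4.3.3, limma 3.58.1) with TMM normalisation, filterByExpr and the quasi-likelihood test, with p-values adjusted over all genes tested and a threshold of 0.05. The SE of a log2 fold change is its size divided by the root of the F statistic. The procedure was also run on simulated counts, and no result here rests on that run. Changes were placed only in genes above a low level, so it does not cover members with few counts. Alternatives were DESeq2 1.42.0, other size factors, other filters, other sets of libraries, the replicate number as a block, and leaving out each library. Same-numbered libraries did not deviate together (correlations of -0.44 to -0.14), so the numbers were not taken to pair them.

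Members and gene lists were chosen with earlier results of these data known. Genes named with values are, by rule, up to 8 called members per direction in each stage comparison, the 5 smallest p-values in each other comparison, the highest member of each subfamily, members with a published role, his-71, his-72, daf-9, emb-8 and called list members. The others with values were chosen after their values were seen. Among them are cyp-13A7, cyp-13A10, cyp-31A1, cyp-33C3, his-70, his-74, mdt-15, ahr-1, fasn-1, single marker genes and the extremes of each array. Coding lengths are those of the union of coding exons in the Ensembl 115 annotation of WBcel235, used in place of protein lengths, and pseudogenes have none. Protein and promoter sequences were not used here.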

Additional observations from a re-analysis of the deposited data

How the results depend on the processing

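For members picked mainly by small p, the direction of the strain comparisons held in most alternatives, and their calls stayed near 0. Medians did not all keep their side when a library was left out. The embryo median over all members ran from -0.14 to 0.45, and that of family 37 in L1 from -1.19 to 0.96. Of 95 alternative values for 9 members in L1, 2 changed sign and 1 became called, and of 52 for 5 members in embryos 1 changed sign. All 68 values of the difference between stages kept their side. Of 264 values for 24 members in each stage comparison, 38 in N2 and 20 in FAS43 lost their call, 3 and 6 gained one, and 1 and 3 changed sign. Of the 18 members called in N2, 6 were called under every alternative, and of the 11 in FAS43, 1 was (cyp-37B1). Calls under every alternative were not counted over all genes. The number of members called lower in N2 was 2, and it was 4 by DESeq2 and 1 when only the 4 libraries compared were fitted, while in FAS43 it was 0 and 4 by DESeq2. Over all genes these numbers were 2157, 2837 and 1944 in N2, and 1288 and 2108 in FAS43. With the replicate block 15 members were called higher and 1 lower in N2, 11 higher and 0 lower in FAS43, and 0 in the other comparisons. The crossed replicate block, added after seeing the data, gave the same counts of members, 15 and 1 in N2 and 11 and 0 in FAS43. Of all 13335 genes, the replicate block called 2703 higher and 1384 lower in N2, and 1840 and 955 in FAS43. The crossed block called 3150 and 2480 in N2, and 2338 and 1617 in FAS43. The cause of these shifts was not tested.

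Leaving out each library in turn moved the members' median stage change, from 0.92 to 1.33 in N2 and from 0.16 to 0.58 in FAS43. Over all tested genes that median ran from -0.05 to 0.09 in N2 and from -0.14 to 0.12 in FAS43. For FAS43 against N2 in L1 the members' median ran from -0.69 to -0.20, against -0.11 to 0.03 over all tested genes. Values that changed sign ranged from -3.29 to 0.15 for cyp-35A3 and from -2.57 to 0.11 for cyp-35A5 in the L1 strain comparison, and from -0.012 to 2.30 for cyp-32A1 in embryos. In the stage comparisons they ranged from -2.20 to 0.092 for cyp-35A5 in N2, and from -0.56 to 1.73 for cyp-35C1 and -0.89 to 0.15 for cyp-42A1 in FAS43. A lone sample left in a group is assumed to vary like the others.

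The mean summed level of the 42 members was 309 CPM in N2 embryos and 281 CPM in FAS43 embryos, and it was 316 and 291 CPM on total counts and 317 and 284 CPM with RLE factors, the latter chosen after seeing the data. A filter of 1 CPM in 2 libraries moved the median log2 fold change of all genes in embryos from -0.08 to 0.10. With 2 libraries a group, members with few counts, such as cyp-33C2, cyp-13A12 and the 10 L1-only members under 1 CPM, limit what could be detected.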
